A study of Mus musculus with 40 samples.

Results

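Of the 29787 gene symbols kept from the count files of this series, 9 are described here: *Ehhadh*, *Ech1*, *Acadl*, *Acadm*, *Acadvl*, *Hadha*, *Hadhb*, *Acaa2* and *Cpt2*, genes of mitochondrial and peroxisomal fatty acid oxidation, picked by symbol. The series holds RNA-seq of 20 immortalised cell lines that came from the brown fat of C57BL/6 mice. Each line was sequenced once as undifferentiated preadipocytes and once 8 days after adipocyte differentiation was induced, which gives 2 groups of 20 libraries. All cells were at passage 6 to 12. The inducing mix held insulin, T3, dexamethasone, IBMX and indomethacin, and medium with T3 and insulin was renewed during the 8 days. The undifferentiated cells grew in medium with glucose, pyruvate and serum. The labels name each line by a letter and a number and do not say how a line was immortalised, whether it is 1 clone or what the letter stands for. Because a line has 1 library per stage, the spread between cultures of a line was not measured on its own. P-values of the main stage test, which did not pair libraries by line, and of tests within day 8 rest on the spread between lines. Those of the line difference rest on the residual between the 2 libraries of a line.

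Fatty acid oxidation breaks acyl-CoA down from its carboxyl end in a repeated cycle of dehydrogenation, hydration, a further dehydrogenation and thiolytic cleavage, with each turn releasing acetyl-CoA. Mitochondria take up long chains through the carnitine shuttle and run the cycle on long, medium and short chains, whereas peroxisomes shorten very long chains, branched chains and dicarboxylic acids with their own enzymes. In brown adipocytes this pathway is the main source of the reducing equivalents that feed uncoupled respiration and heat production.

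Library depth ranged from 19535806 to 28074918 gene counts in undifferentiated and from 27181830 to 43113838 in day 8 libraries. A gene with 0 counts could be present at up to 0.107 to 0.154 CPM (the gene's count scaled to library size) in undifferentiated and 0.0699 to 0.111 CPM in day 8 libraries, where the limit is 3 counts and covers counting error only. The stages were counted differently: reads aligned to several places made up 16.8% ± 0.456 (SD, n = 20) of tallied reads before and 12.8% ± 1.02 after differentiation, and the tallies of low-quality and unaligned reads were 0 in all day 8 libraries. Line C6 stood apart at day 8. Its adipocyte score, the mean log2 CPM of 12 general adipocyte genes such as *Adipoq* and *Plin1*, was 4.42 against a median of 9.39 over the lines, and the next lowest score was 7.42 in line D5. Results on the members that rest on these lines are given with and without them. Of the 5 markers of thermogenic brown adipocytes, the summed level had a median of 16.8 CPM at day 8 (0.789 to 294 CPM), and *Ucp1*, which encodes the uncoupling protein, ranged from 0 to 52.2 CPM, the top value being that of line B6. Day 8 means were 24.5 CPM for *Cidea*, 10.2 for *Elovl3*, 4.95 for *Ucp1*, 4.82 for *Cox8b* and 0.146 for *Dio2*. Markers of other cell types were summed as well. The 6 skeletal muscle markers summed to a median of 4.42 CPM (1.30 to 18.2), nearly all of it from *Acta1*, with *Myod1* and *Myog* averaging 0.0029 and 0.0086 CPM. The 5 immune markers had a median sum of 3.99 CPM (1.96 to 8.76, highest in C6), against 3.79 CPM before differentiation. *Ptprc* averaged 0.0106 CPM, *Cd68* 3.05 CPM and *Lyz2* 1.61 CPM at day 8, and *Lyz2* was higher than before in 20 of 20 lines. *Emr1* was listed at 0 in every library, and whether its reads were counted under that symbol was not tested. The 4 endothelial markers had a median of 5.93 CPM (0.580 to 32.2, highest in C6), against 3.55 CPM before differentiation. Of these *Cdh5* averaged 0.0558 CPM at day 8, *Pecam1* 0.647 CPM (higher than before in 20 of 20 lines) and *Kdr* 4.10 CPM. *Tek* rose from 0.711 to 4.05 CPM (log2 fold change 2.50, adjusted p = 8.98e-05) and was lower in lines with a higher adipocyte score (slope -1.73 log2 units per SD, adjusted p = 0.0017, all 20 lines). The 3 hepatocyte markers had a median sum of 0.121 CPM (0 to 0.909). The part of these lists in the results was not tested.

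All 9 genes rose with differentiation. edgeR's quasi-likelihood test called 9 of 9 higher at day 8, where 43.6% of the 14081 tested genes were called higher and 38.4% lower, 82% in all. The median log2 fold change of the members was 2.61, against 0.06 over all tested genes. Each gene was higher at day 8 in 20 of 20 lines, which held for 25% of all tested genes. For 6 of the 9 the lowest day 8 library lay above the highest undifferentiated library, as it did for 12.5% of tested genes. The other members, *Acadm*, *Acadvl* and *Cpt2*, overlapped between the stages. In bulk RNA a larger share of cells that express a gene and more of its RNA per cell cannot be told apart, and the stage cannot be told apart from the way its libraries were counted.

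**Figure D1:**
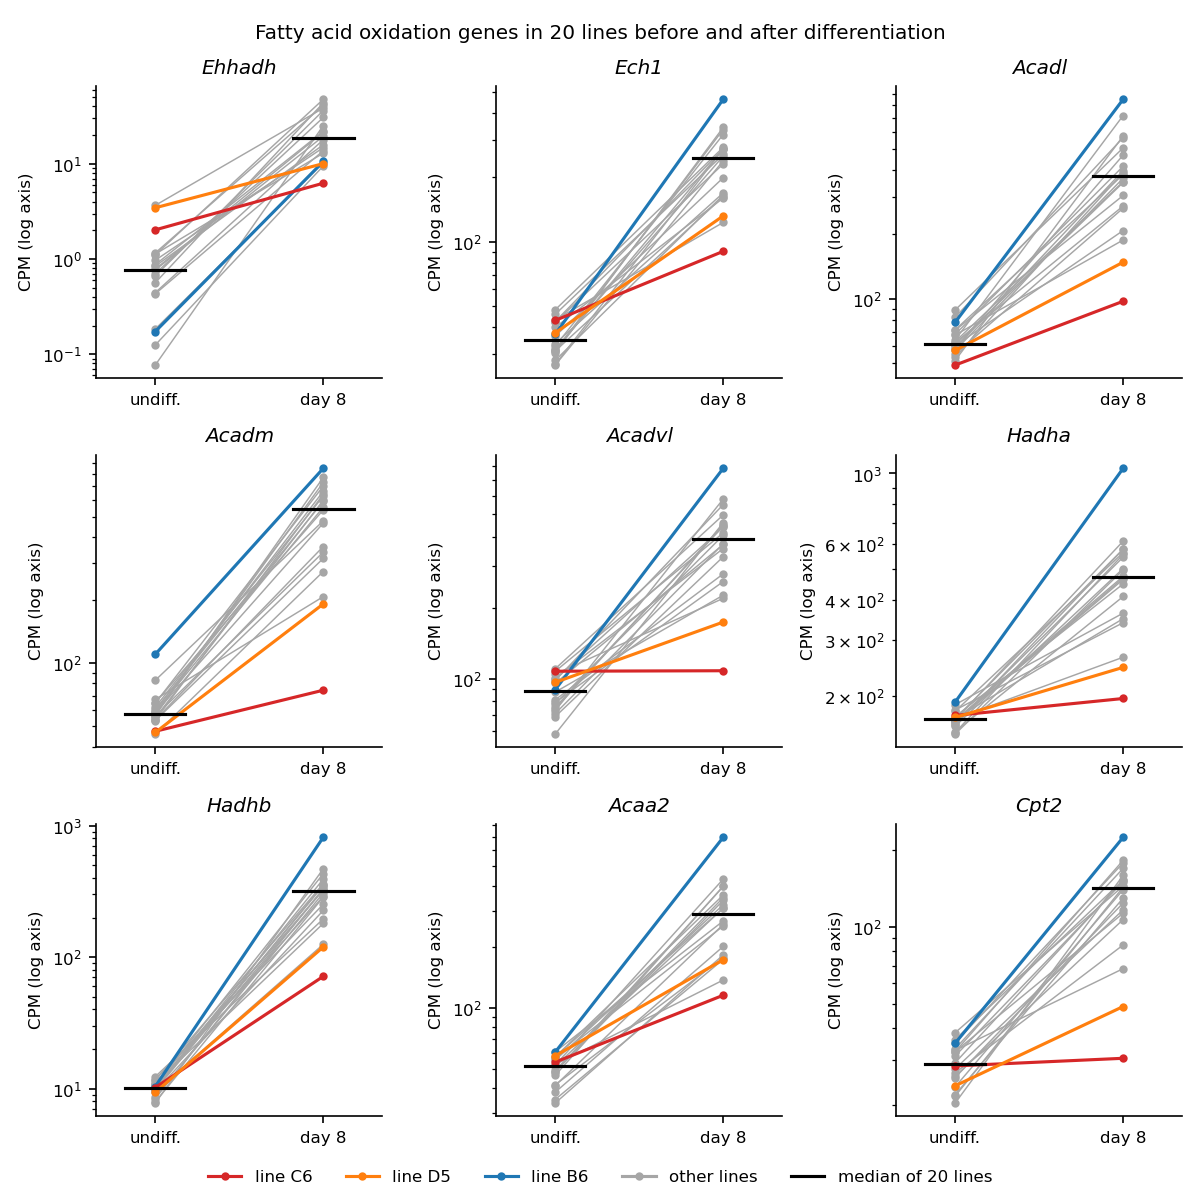
Level of each of the 9 genes in CPM (log axis) in undifferentiated (undiff.) and day 8 libraries, 1 point per library, with a line joining the libraries of a cell line and a black bar at the median of 20 lines. C6 (red) is the lowest of all 9 at day 8 and B6 (blue) the highest of all but *Ehhadh*, and the red *Acadvl* and *Cpt2* lines are nearly flat.

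The carnitine shuttle is represented by *Cpt2* (chromosome 4), the carnitine palmitoyltransferase of the inner mitochondrial membrane that turns imported acylcarnitine back into acyl-CoA. Its level ran from 20.4 CPM (line D3) through a median of 28.9 to 38.4 CPM (D4) before differentiation. At day 8 it ran from 30.5 CPM (C6) through a median of 141 to 224 CPM (B6). The stages overlapped through C6 alone, since the next lowest day 8 library, D5, had 48.7 CPM. The log2 fold change was 2.17 (SE 0.15, adjusted p = 1.91e-16).

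The first dehydrogenation is carried out by acyl-CoA dehydrogenases that differ in the chain length they prefer. *Acadvl* (chromosome 11) encodes the very long-chain enzyme of the inner membrane. It ran from 58.0 CPM (B3) through a median of 88.6 to 110 CPM (A5) in undifferentiated libraries and from 108 CPM (C6) through 391 to 784 CPM (B6) at day 8. Again only C6 fell within the undifferentiated range, the next being D5 at 174 CPM, and the log2 fold change was 2.14 (SE 0.15, adjusted p = 2.98e-16). *Acadvl* shares 1151 exon bases with *Dvl2*, a Wnt signalling gene on the opposite strand, and the strand setting of the counting is not given in the sources used here. *Dvl2* itself had 78.3 CPM ± 10.97 before and 82.1 CPM ± 19.3 after differentiation (SD, n = 20). Its highest day 8 levels were in C6, where it went from 102 to 139 CPM, and D5, from 89.3 to 116 CPM. It fell in other lines, such as A5 (84.2 to 68.8 CPM). The part of the overlap in the *Acadvl* values was not tested.

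*Acadl* (chromosome 1) encodes the long-chain dehydrogenase. Its level ran from 49.1 CPM (C6) through a median of 61.7 to 88.7 CPM (B1) before differentiation and from 97.5 CPM (C6) through 372 to 852 CPM (B6) at day 8, without overlap. The log2 fold change was 2.61 (SE 0.17, adjusted p = 3.92e-17). *Acadm* (chromosome 3) encodes the medium-chain enzyme, whose loss in people is a common inherited defect of fatty acid oxidation. It ran from 45.8 CPM (C2) through a median of 57.5 to 110 CPM (B6) and, at day 8, from 74.3 CPM (C6) through 546 to 849 CPM (B6). C6 alone lay within the undifferentiated range, and the next day 8 library, D5, had 192 CPM. The log2 fold change of *Acadm* was 3.04 (SE 0.19, adjusted p = 5.89e-18). Of its messenger RNA, 10.9% of 31-base words also occur in annotated processed pseudogenes, and the part of this in its values was not tested.

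Peroxisome proliferator-activated receptors and related nuclear receptors bind repeats of the half-site AGGTCA. Promoter windows of 250 bases before to 50 bases after the start site were available from RefSeq (GRCm38.p6) for 8 of the 9 genes, *Acaa2* being the exception. Searched on both strands, the direct repeat AGGTCANAGGTCA was in 0 of 8 windows and in 0.0444% of 27025 promoters. The extended element TNAAGGTCA of the oestrogen-related receptors was likewise in 0 of 8 (1.26% of promoters). A single half-site was in 2 of 8 windows (16% of promoters), those of *Acadm* and *Acadvl*, and they are shown because they are the members whose proximal sequence holds one. CCAAT was in 1 of 8, that of *Ehhadh* (37.9% of promoters). The half-site is in capitals and starts at base -249 in *Acadm*, where it reads on the other strand, and at -87 in *Acadvl*.
Acadm promoter: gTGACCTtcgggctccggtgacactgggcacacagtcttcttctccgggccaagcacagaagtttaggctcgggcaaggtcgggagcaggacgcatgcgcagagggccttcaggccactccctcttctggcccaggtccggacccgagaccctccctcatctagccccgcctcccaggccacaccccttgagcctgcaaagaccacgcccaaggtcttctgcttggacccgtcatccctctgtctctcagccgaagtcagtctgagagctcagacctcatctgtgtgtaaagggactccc
Acadvl promoter: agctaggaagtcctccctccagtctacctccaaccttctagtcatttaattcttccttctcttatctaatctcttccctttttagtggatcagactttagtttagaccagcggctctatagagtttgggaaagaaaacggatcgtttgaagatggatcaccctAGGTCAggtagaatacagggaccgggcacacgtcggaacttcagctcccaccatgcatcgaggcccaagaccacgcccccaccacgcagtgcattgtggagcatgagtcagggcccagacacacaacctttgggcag

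The middle steps and the cleavage of long chains are run by the mitochondrial trifunctional protein, a complex of alpha subunits encoded by *Hadha*, with hydratase and hydroxyacyl-CoA dehydrogenase activity, and beta subunits encoded by *Hadhb*, the thiolase. *Hadha* was the most even member before differentiation, from 152 CPM (C4) through a median of 169 to 192 CPM (B6). At day 8 it ran from 197 CPM (C6) through 473 to 1038 CPM (B6), so the stages did not overlap but C6 exceeded the highest undifferentiated library only slightly. Its log2 fold change, 1.49 (SE 0.12, adjusted p = 1.01e-14), was the smallest of the 9. *Hadhb* ran from 7.76 CPM (D6) through a median of 10.1 to 12.3 CPM (C2) and at day 8 from 71.4 CPM (C6) through 316 to 815 CPM (B6). Its log2 fold change was 4.96 (SE 0.20, adjusted p = 1.34e-24), the largest of the 9.

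The *Hadhb* values carry a limit of the counting. Processed pseudogenes hold 62.1% of the 31-base words of its messenger RNA, against 10.9% for *Acadm* and 0 for the other 7 members, and the share of reads with several alignments differed between the stages as given above. All 7 members with under 10% rose. Per base of coding sequence, the log2 ratio of *Hadha* to *Hadhb* counts was 3.40 ± 0.15 before differentiation (SD, n = 20), from 3.18 in A5 through a median of 3.38 to 3.71 in D4. At day 8 it was 0.02 ± 0.29, from -0.38 in D6 through a median of 0.02 to 0.78 in C6. The median ratio was thus 10.4 before and 1.01 after differentiation, for 2 genes whose products are found in 1 complex, and the groups did not overlap. Whether the counting contributed to this difference was not tested. Among day 8 libraries, which were counted alike, *Hadha* and *Hadhb* correlated at r = 0.972 over the 20 lines (rho = 0.931). The adjusted permutation p was 1.29e-05 for r and 1.80e-05 for rho, from the smallest permutation p that can be given, 1e-05. Without the 2 lines farthest from the median of *Hadha*, r was 0.949.

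**Figure D2:**
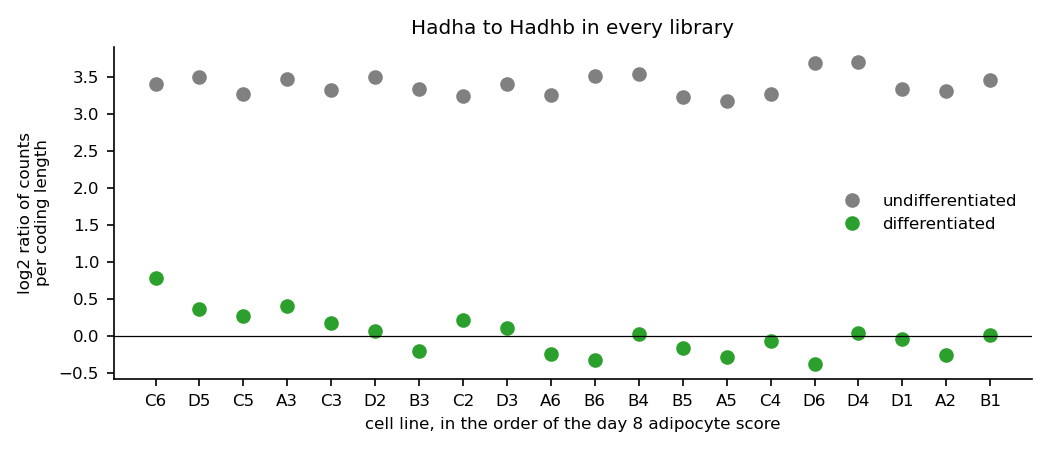
The log2 ratio of *Hadha* to *Hadhb* counts per coding length in each of the 40 libraries, grey for undifferentiated and green for day 8, with lines ordered from the lowest to the highest day 8 adipocyte score. All grey points lie at 3.18 or above and all green points at 0.78 or below, with C6 the highest green point.

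*Hadha* and *Hadhb* lie on chromosome 5 in opposite directions with their starts facing away from each other. Their start sites in RefSeq (GRCm38.p6) are 273 bases apart, so that their windows, chr5:30154931-30155230 on the minus strand for *Hadha* and chr5:30155003-30155302 on the plus strand for *Hadhb*, share 228 bases. Both windows are shown because they hold the stretch between the 2 start sites. Capitals mark the GC box GGGCGG on either strand, a motif bound by Sp family factors. It was found in 6 of 8 member windows and in 35.9% of all promoters. The box that starts at -188 in *Hadha* and the one at -90 in *Hadhb* are the same DNA, and *Hadhb* has others at -25, 11 and 25.
Hadha promoter: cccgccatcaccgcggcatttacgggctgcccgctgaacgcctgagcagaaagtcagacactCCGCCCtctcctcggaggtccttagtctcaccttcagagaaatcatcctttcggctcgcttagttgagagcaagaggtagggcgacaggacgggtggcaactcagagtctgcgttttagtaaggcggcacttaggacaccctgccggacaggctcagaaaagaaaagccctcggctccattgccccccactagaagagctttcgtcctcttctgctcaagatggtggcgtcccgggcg
Hadhb promoter: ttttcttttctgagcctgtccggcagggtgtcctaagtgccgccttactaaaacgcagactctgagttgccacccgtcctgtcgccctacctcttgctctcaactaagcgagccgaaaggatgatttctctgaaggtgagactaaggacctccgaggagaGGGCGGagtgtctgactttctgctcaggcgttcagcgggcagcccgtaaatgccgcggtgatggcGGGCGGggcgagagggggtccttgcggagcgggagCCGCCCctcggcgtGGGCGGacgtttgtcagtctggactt

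*Acaa2* (chromosome 18) encodes the mitochondrial 3-ketoacyl-CoA thiolase of the medium-chain cycle. It ran from 33.8 CPM (D4) through a median of 51.6 to 60.5 CPM (A6) before differentiation and from 115 CPM (C6) through 289 to 694 CPM (B6) at day 8. The stages did not overlap, and the log2 fold change was 2.56 (SE 0.16, adjusted p = 2.73e-18). *Ech1* (chromosome 7) encodes a dienoyl-CoA isomerase that prepares unsaturated chains for the cycle and is found in both mitochondria and peroxisomes. It ran from 26.6 CPM (B4) through a median of 34.9 to 48.2 CPM (C4) and at day 8 from 90.4 CPM (C6) through 245 to 463 CPM (B6). Its stages did not overlap either, and its log2 fold change reached 2.72 (SE 0.14, adjusted p = 2.41e-20).

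*Ehhadh* (chromosome 16) encodes the peroxisomal bifunctional enzyme, which joins hydratase and dehydrogenase activity in 1 protein and is a classical target of PPAR-alpha in rodent liver. It was the least abundant member. Before differentiation it ran from 0.0768 CPM (B3) through a median of 0.774 to 3.66 CPM (D2), and at day 8 from 6.26 CPM (C6) through 18.7 to 47.6 CPM (D1). The groups did not overlap, and the log2 fold change was 4.47 (SE 0.37, adjusted p = 3.34e-14). In B3 the undifferentiated value rests on 2 counts and the ratio of day 8 to undifferentiated level was 327 (95% interval 90.2 to 2707, counting error only), while in C5 it rests on 3 counts and the ratio was 76.0 (25.8 to 370). Before differentiation C6 and D5 were among the 3 highest lines, with 2.02 and 3.45 CPM, whereas at day 8 they ranked 20th and 18th.

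Scaled to coding length, the 9 genes at day 8 followed the order *Acadm* (394 ± 169 CPM per kilobase, SD, n = 20), *Acadl* (303 ± 145), *Acaa2* (245 ± 112), *Ech1* (241 ± 91.1), *Hadhb* (218 ± 111), *Hadha* (208 ± 77.9), *Acadvl* (196 ± 79.1), *Cpt2* (66.2 ± 23.6) and *Ehhadh* (10.4 ± 5.95). From *Acadm* to *Acadvl* each step between neighbours was smaller than the SD of either gene. *Cpt2* stood below *Acadvl*, and *Ehhadh* below *Cpt2*, by more than the SD of the lower gene. These SDs describe the spread between lines, and the order of genes measured in the same libraries was not tested. The place of *Hadhb* carries the limit of its counting given above. Before differentiation *Hadha* was highest at 73.9 ± 4.53 CPM per kilobase, and *Ehhadh* was lowest at 0.467 ± 0.456.

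For every member except *Ehhadh* the spread between lines was larger after differentiation than before. Between undifferentiated lines the SD of log2 CPM was 0.09 for *Hadha* and at most 0.29, for *Acadm*, among the 8 genes other than *Ehhadh*, against a median of 0.28 over all tested genes. *Ehhadh* had an SD of 1.25 before differentiation, more than at day 8. At day 8 the SDs ran from 0.53 (*Hadha*) to 0.86 (*Acadm*), with *Ehhadh* at 0.85, against a median of 0.38 over all genes. Without C6 and D5 they ran from 0.40 (*Cpt2*) to 0.76 (*Ehhadh*).

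The change within a line differed widely. Averaged over the 9 genes the log2 change was 0.94 in C6, 1.60 in D5 and 1.81 in A3, while it was 3.59 in D6 and 3.73 in B6. In C6 *Acadvl* changed by 0.0069, *Cpt2* by 0.099 and *Hadha* by 0.18 on the log2 scale, and *Hadhb* by 2.80. *Hadhb* was the member with the largest change in C6, and the part of its pseudogene share in that value was not tested. *Ehhadh* in C6 changed by 1.60, the second smallest change of that gene after D5 with 1.52.

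**Figure D3:**
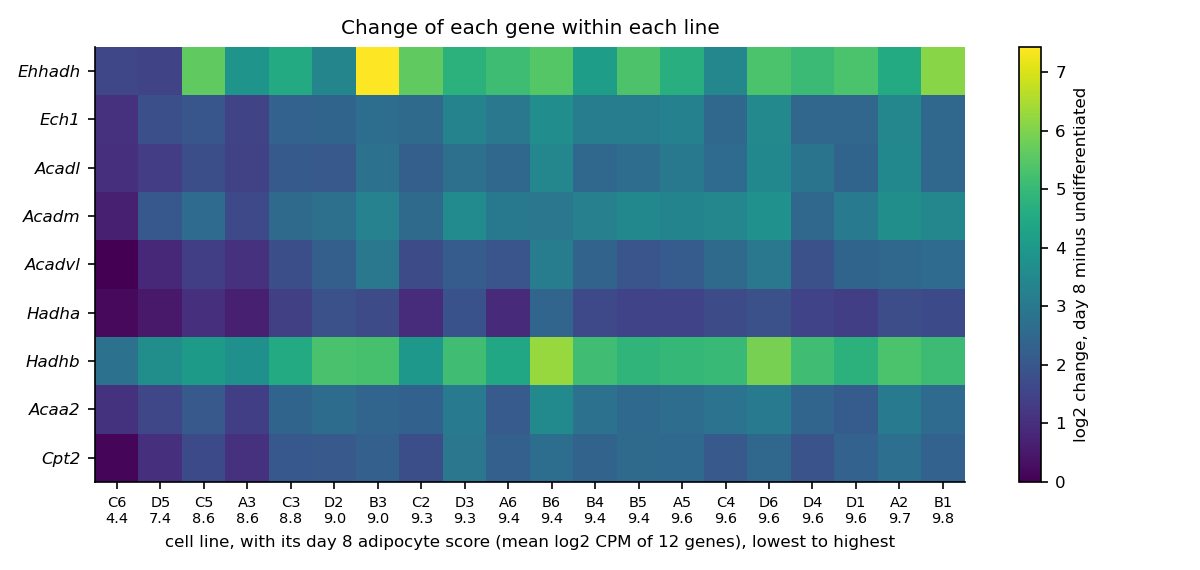
Log2 change from undifferentiated to day 8 of each gene (rows) in each cell line (columns, from the lowest to the highest day 8 adipocyte score, which is printed under the line's name), by colour. The leftmost columns, C6 and D5, are darkest, with *Acadvl*, *Cpt2* and *Hadha* of C6 near 0, and the *Ehhadh* and *Hadhb* rows are brightest.

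Because every line was sequenced at both stages, it could be asked whether the lines differ in these genes beyond the stage. The test sets the lines against the residual between the 2 libraries of a line. A difference between lines that is present at day 8 only counts as residual. A lack of calls therefore does not show that the lines were alike at day 8. edgeR's quasi-likelihood test over all line coefficients called 0 of 9 members, where 29.1% of all tested genes were called. The members' adjusted p in that test ran from 0.167 (*Acaa2*) to 0.863 (*Acadvl*). At an unadjusted p under 0.05 were 0 of 9 members and 5964 of 14081 tested genes. Without C6 and D5 the test called 2 of 9, *Ehhadh* (adjusted p = 0.0398) and *Acaa2* (adjusted p = 0.0495), against 22.6% of all genes. The level of a gene before differentiation was also set against its level at day 8 over the 20 lines. None of the 9 correlations passed the adjusted threshold. The highest were those of *Acadm* (Pearson r = 0.485, permutation p = 0.0402, adjusted p = 0.181, Spearman rho = 0.460, adjusted p = 0.334) and *Acadl* (r = 0.470, permutation p = 0.0367, adjusted p = 0.181, rho = 0.376, adjusted p = 0.334), which were the 2 with an unadjusted Pearson p under 0.05. Leaving out the 2 lines farthest from the median undifferentiated level of the gene gave r = 0.540 and r = 0.401. The order changed without C6 and D5: *Acadm* had r = 0.335 and *Acadl* r = 0.281, while *Acaa2* (r = 0.564, permutation p = 0.0146, adjusted p = 0.106) and *Ehhadh* (r = 0.526, permutation p = 0.0235, adjusted p = 0.106, against r = 0.143 over 20 lines) were highest. None passed the adjusted threshold there either.

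At day 8, 8 of the 9 genes ranked the lines in much the same order. C6 was lowest for all 9, and D5 and A3 ranked 18th or 19th for all members but *Ehhadh*, for which A3 ranked 13th. B6 was highest for 8 genes but ranked 16th for *Ehhadh*, whose highest line, D1, ranked between 4th and 13th for the others. Over the 20 lines, the 28 pairs without *Ehhadh* correlated at r = 0.818 to 0.983 in log2 CPM (median 0.936) and rho = 0.774 to 0.976. All 28 passed the permutation test adjusted over the 36 pairs. They did so without C6 and D5 too, with r = 0.783 to 0.970. How many pairs of other genes would pass over these lines was not tested, so the count is not read as particular to these members. For each pair, the 2 lines farthest from the median of 1 gene, the earlier in the opening list, were also left out. Then r was 0.745 to 0.968.

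*Ehhadh* did not follow this order. Its 8 pairs had r = 0.081 to 0.520 (median 0.346), and 1 of 8 passed, that with *Cpt2* (r = 0.520, adjusted permutation p = 0.0204), which did not pass by rank (rho = 0.385, adjusted p = 0.119). Without C6 and D5 none passed, with r from -0.26 to 0.18, and the lowest adjusted permutation p was 0.365. Without B6, an alternative chosen after the data were seen, 5 of the 8 passed by Pearson's r (0.241 to 0.641) and 1 of the 8, again *Cpt2*, by rank (rho = 0.126 to 0.505). Both kinds of pair share libraries, depth and the day 8 range set by C6, and the difference between them was not itself tested.

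All 9 genes were higher in lines with a higher adipocyte score. In the 20 day 8 libraries edgeR's quasi-likelihood test on the score called 9 of 9 higher, where 23.2% of tested genes were called higher and 20.2% lower, 43.5% in all. The slopes, in log2 units per SD of the score (1.21), ran from 0.39 for *Hadha* (adjusted p = 0.00312) to 0.76 for *Acadm* (adjusted p = 2.46e-05). *Cpt2* had the smallest p, with a slope of 0.61 (adjusted p = 1.08e-05), and *Ehhadh* the largest, with 0.53 (adjusted p = 0.0168). Without C6 and D5 the score had an SD of 0.37 over 18 lines, and 7 of 9 were called, against 14.8% of genes. *Ehhadh* (slope 0.26 per that SD, adjusted p = 0.243) and *Hadha* (0.20, adjusted p = 0.111) then missed the threshold, while *Cpt2* (0.31, adjusted p = 0.0021) and *Acadm* (0.41, adjusted p = 0.00324) passed.

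**Figure D4:**
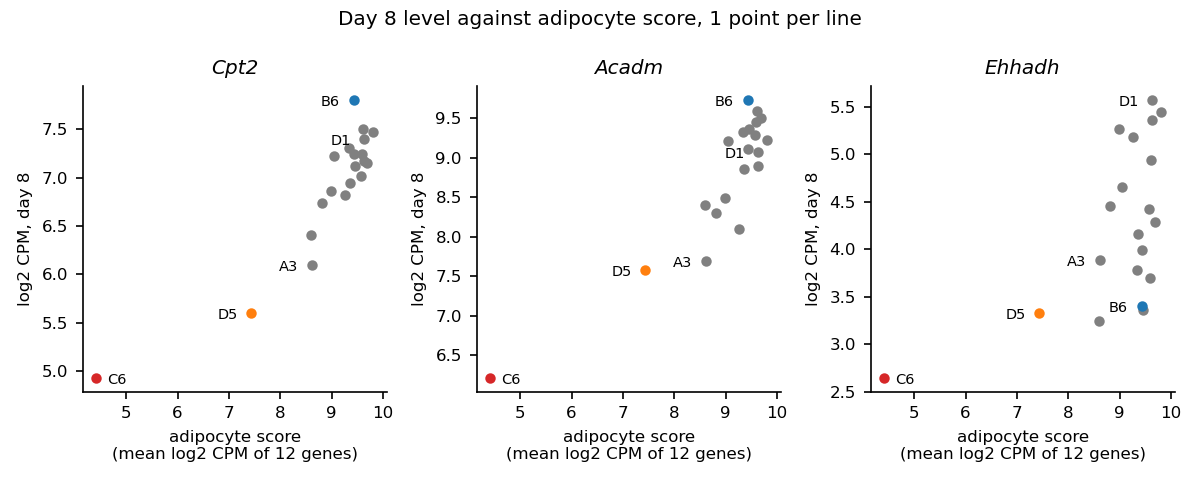
Day 8 level (log2 CPM) of *Cpt2*, *Acadm* and *Ehhadh* against the day 8 adipocyte score (mean log2 CPM of 12 adipocyte genes), 1 point per line. *Cpt2* and *Acadm* climb from C6 at a score of 4.42 to the lines above 9, whereas *Ehhadh* is widely spread among those lines and lies low in B6.

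*Ucp1*, a marker of thermogenic adipocytes that the general adipocyte score does not hold, was tested as a covariate next to that score. In that fit 5 of 9 genes were higher in lines with more *Ucp1*, where 2.85% of genes were called higher and 0.561% lower, 3.41% in all. They were *Hadhb* (0.48 log2 units per SD of log2 *Ucp1*, adjusted p = 0.00157), *Acadl* (0.44, adjusted p = 0.00272), *Hadha* (0.37, adjusted p = 0.00285), *Acadvl* (0.32, adjusted p = 0.0126) and *Cpt2* (0.26, adjusted p = 0.0170). *Acaa2* (0.36, adjusted p = 0.0507), *Ech1* (0.28, adjusted p = 0.0523), *Acadm* (0.27, adjusted p = 0.0792) and *Ehhadh* (0.07, adjusted p = 0.870) missed the threshold. *Ucp1* itself did not pass the filter on low counts. At day 8 it had 0 CPM in C6, 0.0543 in D5 and 0.0846 in A3, and its median log2 CPM was -0.27. The low end of this covariate thus rests on few counts and on the prior count. The calls rested on line B6, which had 52.2 CPM of *Ucp1*. Without B6, edgeR called 0 of 9 (adjusted p = 0.0545 for *Acadl* to 0.474 for *Ehhadh*), where 0.172% of all genes were called higher. At an unadjusted p under 0.05, in either direction, were 6 of 9 members and 2395 of 13975 tested genes. All 9 slopes were above 0 without B6, among them 0.36 for *Acadl*, 0.33 for *Hadhb*, 0.24 for *Hadha*, 0.22 for *Acadvl* and 0.19 for *Cpt2*. These slopes are per SD of log2 *Ucp1* over the lines left in the fit. The slopes with B6 are per SD over 20 lines (2.36), so the sizes of the 2 sets cannot be compared directly. Without C6 and D5, 7 of 9 were called, against 3.94% of genes.

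The rest of the pathway rose with the members, with few exceptions. Of 21 other mitochondrial genes of carnitine transport, the cycle and its electron transfer, 19 rose, 1 fell and 1 was not called. Over all tested genes 43.6% were called higher and 38.4% lower. The median of the list's log2 fold changes was 1.96. *Acad10*, an acyl-CoA dehydrogenase relative, went from 0.608 to 10.9 CPM (log2 fold change 4.16, adjusted p = 1.11e-16). *Echs1*, the short-chain enoyl-CoA hydratase, went from 43.7 to 354 CPM (3.02, adjusted p = 7.72e-19). *Crat*, the carnitine acetyltransferase, and *Acad11* had log2 fold changes of 2.38 and 2.27.

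The carnitine palmitoyltransferase genes of the outer side of the shuttle differed from *Cpt2*. *Cpt1a*, the liver-type form, had 64.0 CPM ± 19.9 before and 51.9 CPM ± 32.7 at day 8 (SD, n = 20), was higher at day 8 in 7 of 20 lines and was not called (log2 fold change -0.30, adjusted p = 0.196). *Cpt1b*, the muscle-type form that brown fat also uses, rose from 4.81 ± 1.15 to 20.6 ± 21.4 CPM (2.10, adjusted p = 1.55e-08), in 20 of 20 lines. *Cpt1c*, the form known from the brain, fell from 66.4 ± 12.6 to 30.3 ± 17.8 CPM (log2 fold change -1.13, adjusted p = 3.84e-06), in 20 of 20 lines.

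Peroxisomal genes of the list rose without exception among those tested, 20 of 20 with a median log2 fold change of 1.87, where 43.6% of all tested genes were called higher. The fatty acid transporter of the peroxisomal membrane *Abcd2* went from 1.14 to 56.0 CPM (log2 fold change 5.61), and *Pex11a*, a factor of peroxisome division, from 3.12 to 57.9 CPM (4.21). *Scp2*, which encodes sterol carrier protein with a peroxisomal thiolase form, went from 24.8 to 361 CPM (3.86). *Acox2*, the branched-chain oxidase, had 2 counts in all undifferentiated libraries together and a mean of 11.7 CPM at day 8, a ratio of 2641 (95% interval 731 to 21815, over pooled counts and for counting error only). Between lines its day 8 level ran from 0.0272 to 69.2 CPM.

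Of 20 tested regulators, 19 rose and 1 fell, where 43.6% of all tested genes were called higher and 38.4% lower, and the median log2 fold change was 3.37. The largest rises were those of *Klf15*, a transcription factor induced by glucocorticoid (0.560 to 134 CPM, log2 fold change 7.88), *Ucp3* (0.0228 to 5.11 CPM, 7.57), the lipid droplet protein gene *Plin5* (0.138 to 16.4 CPM, 6.86) and *Acacb*, whose product makes the malonyl-CoA that restrains carnitine palmitoyltransferase (2.60 to 218 CPM, 6.39). A gene with 0 counts could be present at up to 0.107 to 0.154 CPM in undifferentiated libraries. The undifferentiated mean of *Ucp3* lies below that range and that of *Plin5* within it, so the size of both fold changes is uncertain. *Ppara*, the nuclear receptor that drives fatty acid oxidation genes, went from 0.831 ± 0.605 to 35.3 ± 42.0 CPM (5.40, adjusted p = 8.02e-14). *Pparg*, the receptor that directs adipocyte differentiation, went from 46.9 ± 36.7 to 428 ± 178 CPM (3.19, adjusted p = 7.64e-12), in 19 of 20 lines. *Prkaa1*, a catalytic subunit of AMP-activated kinase, fell from 177 to 149 CPM (log2 fold change -0.24, adjusted p = 2.39e-04). *Ppargc1a*, a coactivator of thermogenic and oxidative genes, was listed at 0 in all 40 libraries. Whether its reads were counted under that symbol was not tested, so the 0 is not read as its level.

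Among 9876 genes averaging 10 CPM or more at day 8, the 5 whose levels over the 20 lines were most like the mean standardised profile of the members included *Apoo* (r = 0.977), *Flad1* (0.974), the FAD synthase gene, *Lyrm5* (0.971) and *Hadh* (0.970), the short-chain hydroxyacyl-CoA dehydrogenase gene. These values are a description over libraries that share depth and the low C6 library. Without C6 and D5 the 5 most alike included *Fh1* (0.961), *Ndufs1* (0.960), *Apoo* (0.959) and *Brp44* (0.955).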

How the data were processed

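Libraries of poly(A) RNA came from a strand-marking kit and were read in pairs, per the labels' protocols. The submitters' processing notes name STAR, HTSeq and build mm9, and the sources used here give no versions, annotation or strand setting. The authors deposited raw counts per gene symbol, 1 file per library. The tallies HTSeq adds for reads without a gene (7.17% of reads before and 4.77% after differentiation) and the like were left out, as were 125 of the 29912 shared symbols that differ only in letter case.

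Counts were analysed with edgeR 4.0.16 in R 4.3.3 (filterByExpr by stage, minimum count 10, TMM, quasi-likelihood F-test, Benjamini-Hochberg adjustment, threshold 0.05). Log2 CPM used a prior count of 2, and correlations 100000 permutations. Alternatives used DESeq2 1.42.0, limma 3.58.1 (voom), other scalings, no filter and fewer lines. Statistics were tested on simulated data, in which few genes changed for the fits. In the real data 82% of tested genes were called between the stages, a setting that the simulation does not cover. The labels pair the stages by cell line: after centring each stage, same-line libraries correlated at 0.072 to 0.545, and 14 of 20 lines matched their own best. Pseudogene shares count 31-base words of a transcript in GENCODE M21 processed pseudogenes.

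The members and gene lists were chosen with earlier results of these data known. Other genes named are, per list, up to 4 called rises and 4 called falls of the largest fold and at least 5 CPM in the higher stage, *Cpt1a*, *Cpt1b*, *Pparg*, *Ppara*, *Ppargc1a*, and the 5 most alike genes. Some genes that this rule names are not reported here.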

Additional observations from a re-analysis of the deposited data

How the results depend on the processing

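The stage difference of the 9 members was called in 9 of 9 under every alternative run: DESeq2, limma-voom, DESeq2 size factors, upper-quartile scaling, plain totals, TMM over genes with under 10% pseudogene sequence, no filter, and without C6 and D5. With the line as replicate block it was also 9 of 9, and 12057 genes were called in all, against 11541 without the block; the block changed no call of a member. The line difference called 2 members without C6 and D5 and 0 under the other alternatives. The *Ucp1* relation called 0 members and 25 genes in all without B6, against 5 and 480 with it, and 7 members under upper-quartile scaling and without C6 and D5. The *Hadha* to *Hadhb* log2 ratio per transcript length was 3.12 before and -0.27 after differentiation. Plain totals, the pseudogene-limited TMM, leaving out B6 and the transcript length were chosen after the data were seen. Of single-gene values, 284 kept their side of the threshold, 6 gained and 7 lost a call. Among the 284 are 61 of the line difference, which has no direction. No value that has a direction reversed. Depth limits *Ehhadh* before differentiation, where 2 lines had 3 counts or fewer.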
